A study of Mus musculus with 8 samples.

Results

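The genes described here code for subunits of the NMDA receptor: Grin1, Grin2a, Grin2b, Grin2c, Grin2d and Grin3a. They were chosen by gene symbol, and for each gene the brightest probe set over the 8 arrays stood for it. Of the 6 genes, 5 were matched to a probe set with that single symbol, out of 22180 genes named in all; Grin1 was not, and is not analysed here. All 5 passed the filter on low values, which kept 11712 genes.

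The arrays measured RNA of mouse medial prefrontal cortex (mPFC). All mice carried a ribosome tagged with green fluorescent protein (GFP) that is switched on by Cre recombinase, and in all of them Cre was delivered by CAV2-Cre, a canine adenovirus that enters axon terminals and travels back to the cell body. The virus went into either of the sites labelled NAC and VTA, so that mPFC cells with axons there received the tag. The 4 groups of 2 arrays each were ribosomes pulled down with GFP-trap after NAC injection, the same with VTA as the injected site, and the unpurified input of either kind. The labels give no strain, age or sex and do not say whether arrays of 1 group stand for different animals or for pools, so the p-values reflect no more than the spread among these samples, which may be technical. The tag depends on uptake of the virus and on no cell type promoter named in the labels.

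NMDA receptors are cation channels that open when glutamate binds together with glycine or D-serine and when depolarisation relieves their block by magnesium; the calcium they admit drives synaptic plasticity. Each channel combines the obligatory GluN1 subunit, made from Grin1, with GluN2 subunits, which bind glutamate, or with GluN3 subunits, which bind glycine. In the forebrain GluN2B, made from Grin2b, dominates early in life, and GluN2A, made from Grin2a, is added as synapses mature. GluN2C is best known from cerebellar granule cells and is also found in astrocytes, GluN2D is found in interneurons, and GluN3A lowers the calcium permeability and magnesium block of the channels that hold it.

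Values are the deposited log2 values, and levels of different genes were not set against each other because each probe set has its own response. Array medians over the named genes lay between 5.86 and 5.98. Differences are in log2 units, each with its standard error (SE) from a limma model of all tested genes, with p-values adjusted over all of them by the Benjamini-Hochberg method and a threshold of 0.05. In mixed tissue a lower value can mean fewer cells of a type or less RNA per cell. A pull-down also differs from its input by the purification on ribosomes itself. These cannot be told apart.

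Of the 5 genes, Grin3a differed most between pull-down and input. It was 1.67-fold lower in ribosome-bound RNA, averaged over both targets. Grin2b was 1.18-fold lower and also passed the test, though its call rested on how the arrays were scaled. Grin2a, Grin2c and Grin2d had smaller negative differences that did not pass. No gene of the 5 rose. Of all tested genes 41.5% passed in this comparison and 32.0% passed as lower genes, so 2 of 5 is close to the background share.

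**Figure D1:**
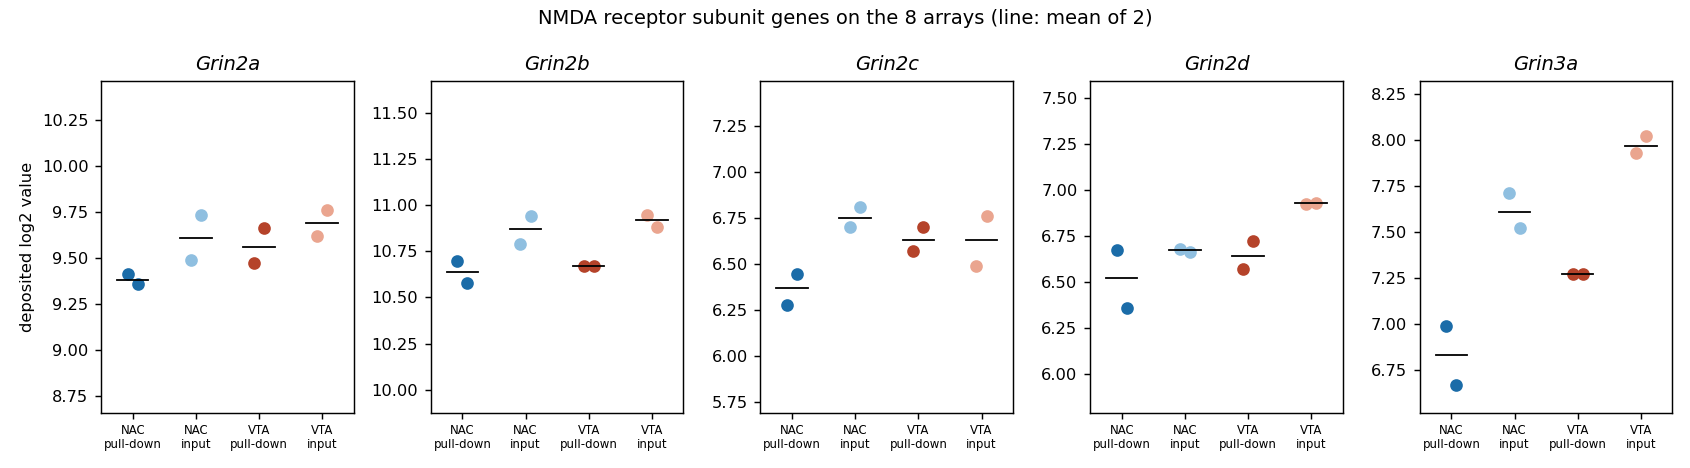
Deposited log2 values (vertical axis, the same span in each panel) of the 5 genes on the 8 arrays; each point is an array, and the line is the mean of the 2 arrays of a group. The Grin3a pull-down points, at 6.67 to 7.27, lie below its input points, at 7.52 to 8.02, and the panels of Grin2a, Grin2c and Grin2d overlap.

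Grin3a lies on chromosome 4 at 49661611 to 49846023 (GRCm38.p6). Its NAC pull-downs were at 6.99 and 6.67 and its NAC inputs at 7.71 and 7.52. Its VTA pull-downs were both at 7.27, and its VTA inputs were at 7.93 and 8.02. Every pull-down thus lay below every input, a separation that 24.8% of all tested genes also showed. The averaged difference was -0.74 (SE 0.09, 95% interval -0.93 to -0.55, n = 4 pull-downs and 4 inputs; limma adjusted p = 0.000417), and 0.931% of tested genes had a lower one. The order of group means was NAC pull-down (6.83 ± 0.23, SD, n = 2), VTA pull-down (7.27), NAC input (7.61 ± 0.14) and VTA input (7.97 ± 0.06). Over all alternatives tried, the averaged difference ran from -0.82 to -0.61, with adjusted p from 9.42e-06 to 0.0056.

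Within each target Grin3a was also lower in the pull-down. The difference was -0.78 with NAC (SE 0.12, n = 2 and 2; limma adjusted p = 0.00632), where 12.3% of all tested genes passed and 8.01% passed as lower genes. It was -0.70 with VTA (SE 0.12; adjusted p = 0.00439), where 31.3% passed and 25.9% as lower genes. These contrasts use different arrays, with a spread estimated over all 8, and both share their arrays with the averaged comparison. The NAC call was lost without the first NAC input (-0.69, adjusted p = 0.0631) and when every named gene was tested (adjusted p = 0.0562). The difference between the targets in this enrichment was 0.08 (SE 0.17, 95% interval -0.30 to 0.46; adjusted p = 0.879).

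Grin2b lies on chromosome 6 at 135713221 to 136173615. Its NAC pull-downs were at 10.70 and 10.58 and its NAC inputs at 10.79 and 10.94. Both VTA pull-downs were at 10.67, and the VTA inputs at 10.95 and 10.88. The pull-downs lay below the inputs on every array, with a gap of less than the spread among the pull-downs. Such a separation was seen for 24.8% of all tested genes. The averaged difference was -0.24 (SE 0.07, 95% interval -0.39 to -0.08; limma adjusted p = 0.0214), and 29.9% of tested genes had a lower one. Within NAC it was -0.22 (adjusted p = 0.152) and within VTA -0.25 (adjusted p = 0.0782), and neither passed. With trended, robust moderation in limma both passed (adjusted p = 0.0336 and 0.0118), where 17.4% and 35.2% of all tested genes did. Leaving out any of 3 arrays ended the averaged call: the adjusted p was 0.0794 without the NAC pull-down numbered 2, 0.0798 without the NAC input numbered 2 and 0.0751 without the VTA input numbered 1. With all probe sets of the gene averaged, the difference was -0.01 (adjusted p = 0.926).

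The median difference of all tested genes was itself -0.11 with the deposited values, which bears on all small falls. With each array centred on its median over the tested genes that median was 0.03, Grin2b stood at -0.10 (limma adjusted p = 0.259) and Grin3a at -0.61 (adjusted p = 0.000657). Centring on the named genes put Grin2b at -0.18 (adjusted p = 0.0799), and quantile normalization at -0.19 (adjusted p = 0.045). Relative to the median of all tested genes with the deposited values, Grin3a was lower by a difference of -0.63. Grin2b stood at -0.13 on this measure, Grin2d at -0.11, Grin2c at -0.08 and Grin2a at -0.06. Of all calls, 23.1% were higher genes with the deposited values, against 58.8% with centring on the tested genes, so directions near 0 follow the scaling.

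**Figure D2:**
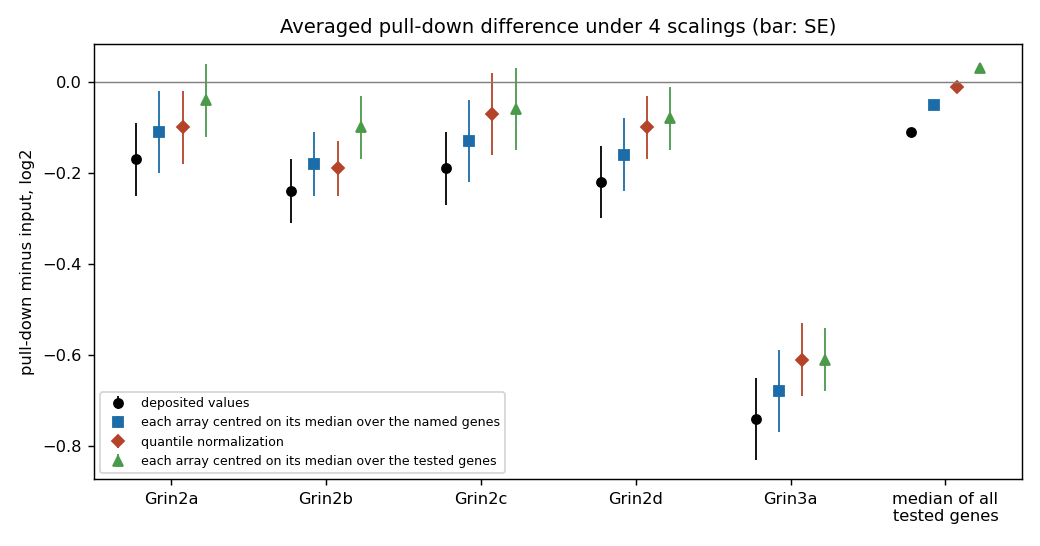
Averaged pull-down minus input differences (log2, vertical axis) of the 5 genes under 4 scalings, with bars of 1 SE, beside the median of all tested genes. Centring subtracts 1 value per array. By construction all 5 genes and the median of all tested genes, from -0.11 to 0.03, therefore shift by the same amount up to rounding. With centring on the tested genes Grin3a goes from -0.74 to -0.61 and Grin2b from -0.24 to -0.10.

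Grin2a lies on chromosome 16 at 9567901 to 9996083. It was at 9.41 and 9.36 in the NAC pull-downs and at 9.49 and 9.73 in the NAC inputs. The VTA pull-downs were at 9.47 and 9.66 and the VTA inputs at 9.62 and 9.76. The groups overlapped: 3 of the 4 pull-downs lay below every input, and the second VTA pull-down did not. The averaged difference was -0.17 (SE 0.08, 95% interval -0.35 to 0.01; limma adjusted p = 0.113). It passed with trended, robust moderation (adjusted p = 0.0452), where 44.4% of all tested genes did. The interval holds both no change and a fall larger than that of Grin2b.

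Grin2c lies on chromosome 11 at 115249169 to 115267297. Its NAC pull-downs, at 6.28 and 6.45, lay below its NAC inputs, at 6.70 and 6.81. Its VTA pull-downs, at 6.57 and 6.70, lay within the range of its VTA inputs, at 6.49 and 6.76. The difference was -0.39 with NAC (SE 0.12; limma adjusted p = 0.057) and 0.01 with VTA (SE 0.12; adjusted p = 0.964). Tested directly, these effects differed by 0.40 (SE 0.17, 95% interval 0.03 to 0.77), which did not pass (limma adjusted p = 0.393; unadjusted 0.0383). None of the 5 genes passed in this comparison, 1 did at an unadjusted p of 0.05 (Grin2c), and 0.0683% of all tested genes passed. The averaged difference was -0.19 (SE 0.08; adjusted p = 0.0907). The NAC difference passed without either VTA pull-down (adjusted p = 0.0496), which changes only the estimate of the spread, and with the replicate block (adjusted p = 0.035).

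Grin2d lies on chromosome 7 at 45831883 to 45871194. Its NAC pull-downs were at 6.67 and 6.36 and its NAC inputs at 6.68 and 6.66. Its VTA pull-downs were at 6.57 and 6.72, below its VTA inputs at 6.92 and 6.93. The averaged difference of -0.22 (SE 0.08, 95% interval -0.40 to -0.04) narrowly missed the threshold (limma adjusted p = 0.052). Within NAC the Grin2d difference was -0.16 (adjusted p = 0.382) and within VTA -0.28 (adjusted p = 0.0841), and neither passed. The averaged difference was -0.30 without the first NAC pull-down, the array closest to its inputs. Leaving out any other single array moved it no further, and the smallest fall was -0.14. Centring on the tested genes gave -0.08 (limma adjusted p = 0.34), and quantile normalization -0.10 (adjusted p = 0.258).

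Some genes had further probe sets, which were dimmer. A second Grin2b probe set lay below the array median on all 8 arrays, at 5.17 to 5.56 in pull-downs and 5.10 to 5.20 in inputs, a difference of 0.22. A second Grin2c probe set was also below the median throughout (4.03 to 5.30 in pull-downs, 3.85 to 4.64 in inputs). The second Grin2d probe set exceeded the median on 5 arrays and differed by 0.03 between pull-down and input. These dim signals did not repeat the negative differences of the brighter probe sets of the same genes. Grin2a and Grin3a had 1 probe set each, so no second measurement of them was at hand.

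**Figure D3:**
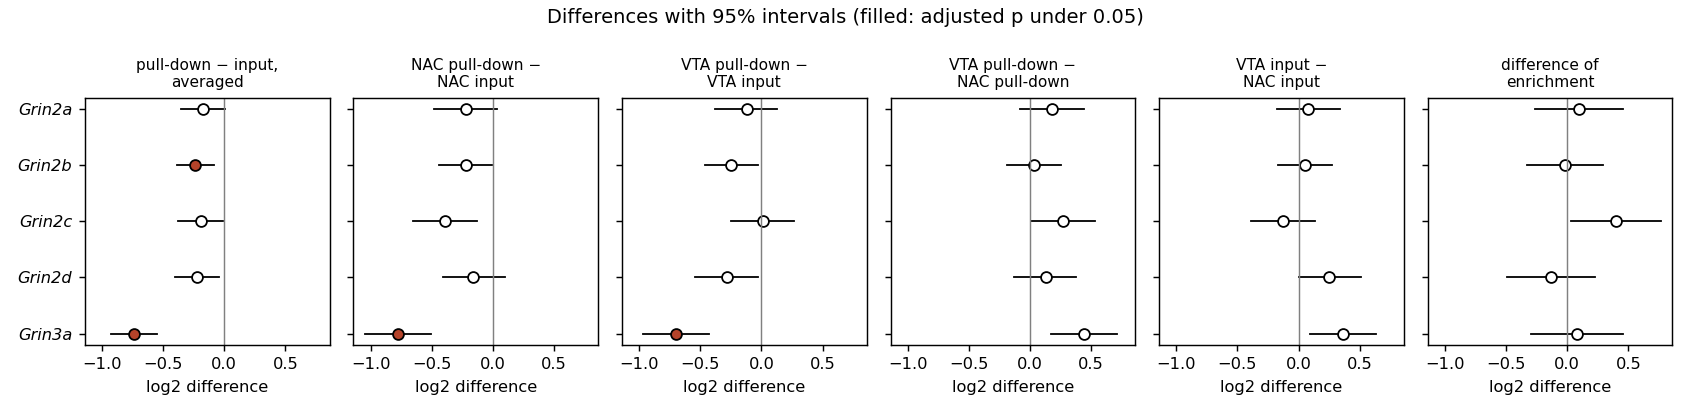
Log2 differences (horizontal axis) of the 5 genes in the 6 comparisons, with 95% intervals; filled points passed an adjusted p of 0.05. Only Grin3a is filled within NAC (-0.78) and within VTA (-0.70), and no point is filled in the 3 comparisons of VTA with NAC.

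Dividing by another subunit on the same array removes any factor that scales the whole array. Grin2b was used as the reference, a choice made after the data were seen because Grin1 had no probe set. Grin3a minus Grin2b was -3.71 and -3.91 in the NAC pull-downs, -3.08 and -3.43 in the NAC inputs, -3.40 in both VTA pull-downs, and -3.03 and -2.87 in the VTA inputs. These values carry the response of each probe set, so only their change is read. The change from input to pull-down was -0.51 (exact permutation within targets, two-sided p = 0.0556, the smallest this design allows; adjusted over 4 differences 0.222). Grin2a, Grin2c and Grin2d relative to Grin2b changed by 0.06, 0.05 and 0.02 (exact permutation p = 0.444, 0.722 and 0.889). The test cannot pass 0.05 here, so these p-values cannot separate the genes. With all probe sets of a gene averaged, in which the dim second Grin2b probe set counts fully, the change of Grin3a was -0.73.

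The targets were also compared directly, in pull-downs and in inputs. In the pull-downs Grin3a was higher with VTA than with NAC by 0.44 (SE 0.12, 95% interval 0.17 to 0.71), which did not pass (limma adjusted p = 0.102). In the inputs it was higher with VTA by 0.36 (SE 0.12, 95% interval 0.09 to 0.63; adjusted p = 0.328). With each array centred on the tested genes, the pull-down difference was 0.49 and passed (adjusted p = 0.0442). Grin2c differed between the pull-downs by 0.27 (adjusted p = 0.298), Grin2a by 0.18 (adjusted p = 0.488), Grin2d by 0.13 (adjusted p = 0.64) and Grin2b by 0.03 (adjusted p = 0.915). None of the 5 passed in limma in either comparison; at an unadjusted p of 0.05, 2 did in the pull-downs (Grin2c and Grin3a) and 1 in the inputs (Grin3a). Among all tested genes 2.47% passed in the pull-downs and 1.50% in the inputs. The 95% interval of Grin2b in the pull-downs was -0.19 to 0.25, and that of Grin2a -0.08 to 0.44.

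Some projection neuron and glial markers differed between the same pull-downs. Of 10 tested markers of glutamatergic projection neurons, 2 passed as higher with VTA, though the list median was -0.10. Both were deep-layer transcription factor genes, Bcl11b at 0.73 (limma adjusted p = 0.00502) and Fezf2 at 0.51 (adjusted p = 0.0215). Of 8 microglial markers 3 passed as lower, all of the complement protein C1q, with C1qa at -0.83 (list median -0.30). Of 10 astrocyte markers 1 passed as lower, the filament gene Gfap at -1.22, while the list median was 0.13. No interneuron, oligodendrocyte, precursor or endothelial marker passed. In this comparison 0.418% of all tested genes passed as higher and 2.05% as lower. C1qa and Gfap were lower in the VTA inputs too, at -0.91 and -0.84. The part of these in the Grin3a values was not tested.

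Markers of other cells were lower in the pull-downs beside Grin3a. Of 14 interneuron markers, 12 were measured and tested, and 9 passed as lower and none as higher, with a median of -0.37. The share of all tested genes that passed as lower was 32.0%. Gad2, for an enzyme that makes GABA, had -0.76, Nxph1 -0.67, Erbb4 -0.65 and Adarb2 -0.56. The mean log2 level of this list was 7.59 to 7.67 on the NAC pull-downs, 7.70 to 7.83 on the VTA pull-downs, 8.03 to 8.05 on the NAC inputs and 8.05 to 8.07 on the VTA inputs. Grin3a is known in cortex from somatostatin interneurons as well as pyramidal cells. Sst itself had 0.04 averaged (SE 0.06, limma adjusted p = 0.616), with -0.11 with NAC and 0.20 with VTA, neither of which passed. Lhx6 and Sox6 of the same list had -0.25 and -0.37 averaged, and both passed (limma adjusted p = 0.0315 and 0.0116). The vesicular GABA transporter gene Slc32a1 had -0.16 (adjusted p = 0.111). The part of interneuron RNA in the Grin3a difference was not tested.

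Astrocyte markers were listed because GluN2C is also found in those cells. Of these, 7 of 10 passed as lower (median -0.35), with Gja1 at -0.59 and Aqp4 at -0.67. In the averaged comparison 32.0% of all tested genes passed as lower and 9.60% as higher. The mean log2 level of the astrocyte markers was 8.84 to 8.94 on the NAC pull-downs and 8.83 to 8.93 on the VTA pull-downs. It was 9.27 to 9.30 on the NAC inputs and 9.13 to 9.21 on the VTA inputs. Within NAC 6 of the 10 markers passed as lower, where 8.01% of all tested genes did, and within VTA 5, where 25.9% did. The part of astrocyte RNA in the Grin2c values was not tested. Of the other lists, 8 of 9 oligodendrocyte, 4 of 6 precursor, 7 of 8 microglial and 4 of 6 endothelial markers passed as lower. Their medians were -0.48, -0.45, -0.43 and -0.35. The leading genes were Mal at -0.79, Pdgfra at -0.82, Csf1r at -0.62 and Slco1a4 at -0.83. Of 10 glutamatergic projection neuron markers, 3 passed as higher and 2 as lower, with a median of -0.02. Among them Nrgn rose by 0.24 and Tbr1 had -0.24. The falls depend on the scaling. Centring on the tested genes gave 4 higher and 0 lower, centring on the named genes 3 and 0, and quantile normalization 4 and 1. The calls among all 11712 tested genes moved too. With the deposited values 1124 passed as higher and 3742 as lower. These counts were 2498 and 1753 with centring on the tested genes. They were 1523 and 2561 with centring on the named genes, and 2060 and 2180 with quantile normalization. The mean level of the projection neuron markers was 10.31 to 10.38 on pull-downs and 10.28 to 10.35 on inputs. With each array centred on the tested genes, fewer markers of most other cells passed as lower. In that setting 21.3% of all tested genes passed as higher and 15.0% as lower. Those passing as lower were then 6 of 12 interneuron markers (1 higher) and 5 of 10 astrocyte markers (1 higher). Of the others, 8 of 9 oligodendrocyte, 3 of 6 precursor, 5 of 8 microglial and 2 of 6 endothelial markers passed as lower.

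**Figure D4:**
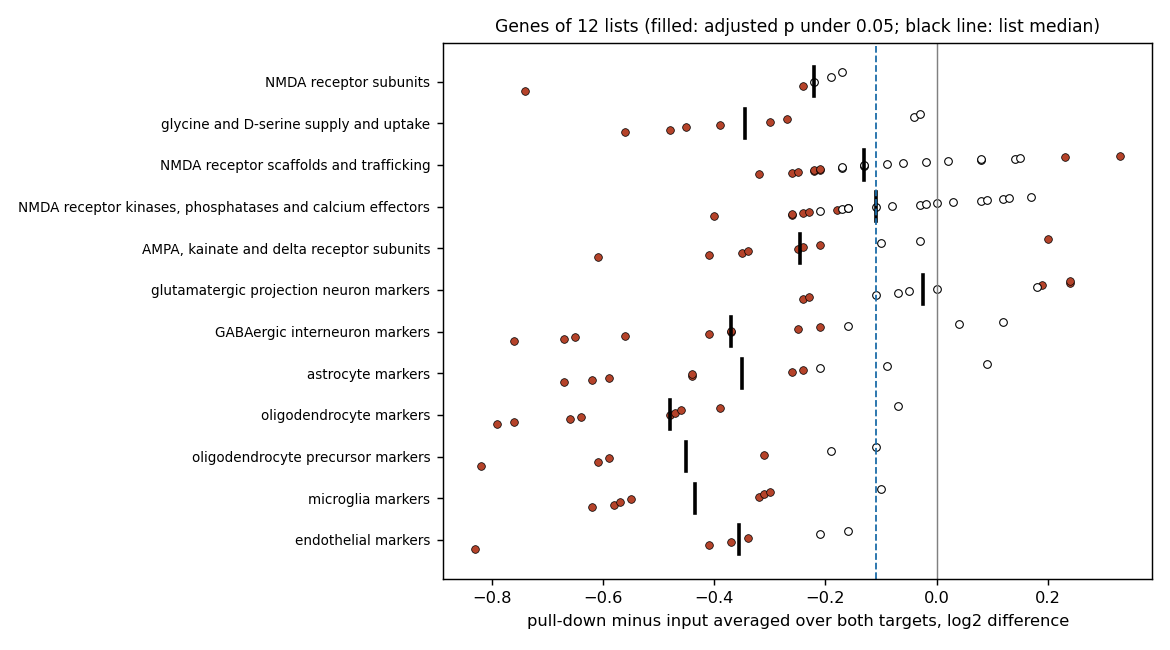
Averaged pull-down minus input differences (log2, horizontal axis) of the tested genes in 12 lists; each point is a gene, filled where the adjusted p was under 0.05, the short black line is the list's median, and the dashed line at -0.11 is the median of all tested genes. Of the NMDA receptor genes, Grin3a at -0.74 lies apart from the other 4 genes, at -0.24 to -0.17.

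Genes that work with the receptor were described from lists of its co-agonist supply, its scaffolds and its effectors. Of 12 genes for the supply and uptake of glycine and D-serine, 8 were tested, with a median of -0.35. Of these, 6 passed as lower, where 32.0% of all tested genes did. The 6 included Psat1 and Shmt2 of serine and glycine synthesis at -0.56 and -0.39. Also among them were the serine transporter gene Slc1a4 at -0.48 and the glycine-cleaving enzyme gene Gldc at -0.45. Srr, the serine racemase that makes D-serine, fell by 0.27. With each array centred on the tested genes, 4 of the 8 passed, all lower, where 15.0% of all tested genes passed as lower. This list holds genes known from astrocytes, whose markers were lower in the same pull-downs. The part of astrocyte RNA in these values was not tested.

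Of 24 scaffold and trafficking genes, 21 were tested, with a median of -0.13. Of these, 7 passed as lower and 2 as higher, shares near the 32.0% and 9.60% of all tested genes. Dlg2, a membrane-associated scaffold of the postsynaptic density, had -0.32, its relative Dlg1 -0.26 and the adaptor gene Cask -0.25, while the adaptor gene Lin7b rose by 0.33. Dlg4, the best known of these scaffolds, had 0.08 (SE 0.06; limma adjusted p = 0.355). Centring on the tested genes, which by construction moves all genes by the same amount, gave 6 passing as higher and 1 as lower. In that setting 21.3% of all tested genes passed as higher and 15.0% as lower.

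Of 26 kinase, phosphatase and calcium effector genes, 21 were tested, and their median of -0.11 equalled that of all tested genes. Of the 21, 6 passed as lower, near the 32.0% of all tested genes. Rasgrf2, an exchange factor activated by calcium, had -0.40, Dapk1 -0.26, the tyrosine kinase gene Fyn -0.26 and Camk2a, a kinase gene bound by GluN2B, -0.23. With centring on the tested genes 4 passed as higher, near the 21.3% of all tested genes, and 1 as lower.

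The other ionotropic glutamate receptor genes gave values of similar size. Of 10 tested AMPA, kainate and delta subunit genes, 7 passed as lower and 1 as higher (median -0.24). Of the NMDA receptor genes, 2 of 5 passed as lower (median -0.22). The shares of all tested genes were 32.0% lower and 9.60% higher. The kainate subunit gene Grik1 had -0.61 and Grik2 -0.35, and the AMPA subunit genes Gria3 and Gria1 had -0.41 and -0.34. Grik5 rose by 0.20. With each array centred on the tested genes, 4 of the 10 passed as lower and 1 as higher. Of the NMDA receptor genes Grin3a alone passed as lower. In that setting 15.0% of all tested genes passed as lower and 21.3% as higher. The difference between the families was not tested.

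Genes whose values ran most like those of each subunit over the 8 arrays were found by Pearson's r among the tested genes, as a description. The arrays fall into pull-downs and inputs, and shared differences between these raise any such r. For Grin3a they were the axonal adhesion gene Cntn1 (r = 0.995), Limch1 (0.991) and the ubiquitin ligase gene Nedd4 (0.991), whose own averaged differences were -0.19, -0.38 and -0.19. These were all smaller than that of Grin3a, so the likeness is one of shape. For Grin2b they were Enpp6 (0.990), A930017M01Rik (0.987) and Rc3h1 (0.983). For Grin2a they were Pnkd (0.978), Tysnd1 (0.971) and Hcfc1 (0.970), and for Grin2d Ofd1 (0.989), Eftud2 (0.985) and Tdrkh (0.982). Grin2c had the lowest top values, with BC005537 (0.954), the retinoid receptor gene Rxra (0.940) and Slc32a1 (0.932). Slc32a1 had -0.35 with NAC and 0.03 with VTA. It was picked for its likeness to Grin2c on these arrays, so the shared pattern lends that of Grin2c no weight.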

How the data were processed

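Expression was measured on 8 Affymetrix arrays from 4 groups of 2, as biotinylated cRNA per the labels. The deposited log2 values, 1 per probe set and array, were made by the authors with Transcriptome Analysis Console, per the submitters' processing notes. Its settings are not stated in the sources, and the values were compared as deposited. The labels describe inputs and pull-downs alike as translating RNA and separate them by source name and pull-down reagent.

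Of 41345 probe sets, 23521 had 1 gene symbol in the platform annotation. Gene positions come from a RefSeq table of GRCm38.p6. Genes entered the tests with 2 or more of 8 arrays over the array's own median of named genes. limma 3.58.1 in R 4.3.3 fitted a mean per group to all arrays (lmFit, eBayes; 4 residual and 6.07 prior degrees of freedom), two-sided, with Benjamini-Hochberg adjustment over 11712 genes, and was tested on simulated data. The planned reference for subunit differences, Grin1, could not be used. Besides the 5 subunits, named genes were those with the lowest adjusted p in each list (up to 4 in the averaged comparison and up to 3 between pull-downs) and the 3 most correlated genes per subunit. Sst, Lhx6, Sox6, Slc32a1, Dlg4, Srr, Grik5 and the input values of C1qa and Gfap were chosen after their values were seen. The subunits and all lists were chosen with earlier results of these data known. The number of arrays limits the precision.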

Additional observations from a re-analysis of the deposited data

How the results depend on the processing

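Of the 5 subunit genes, 2 passed in the averaged comparison; 1 did (Grin3a) with arrays centred on named genes or on tested genes (the latter chosen after seeing the data), with no filter, or with probe sets averaged, where Grin2b had -0.01 and Grin2c was too dim to test. Leaving out 1 array gave 1 to 3 genes there, 0 to 2 with NAC, 1 to 1 with VTA and 0 to 0 in the comparisons of VTA with NAC; a lone array was assumed to vary like the others. Averaged, the shares of all tested genes called were 34.9% and 36.3% with centring on named and on tested genes. They were 15.6% with no filter and 40.4% with probe sets averaged. With NAC, no filter gave 0 subunit genes, where 0.473% of all genes passed. Trended, robust moderation gave 2 (Grin2b and Grin3a) with NAC, where 17.4% passed, and the same 2 with VTA, where 35.2% did. Centring on tested genes gave 1 subunit gene between pull-downs, where 2.49% of all tested genes passed. Signs turned only for differences that did not pass. Centring on tested genes turned Grin2a with VTA to 0.07, Grin2b between inputs to -0.02 and the Grin2b difference of enrichment to 0.10, which was 0.03 with centring on named genes and 0.01 with quantile normalization. Leaving out 1 array spanned -0.13 to 0.14 for Grin2c with VTA, and -0.03 to 0.09 and -0.03 to 0.28 for Grin2b and Grin2d between pull-downs. Between inputs it spanned -0.04 to 0.20 for Grin2a, -0.02 to 0.13 for Grin2b and -0.26 to 0.01 for Grin2c. The difference of enrichment spanned -0.02 to 0.22 for Grin2a, -0.10 to 0.05 for Grin2b, -0.28 to 0.03 for Grin2d and -0.08 to 0.24 for Grin3a. Within arrays, relative to Grin2b, averaging probe sets turned Grin2a to -0.16 and Grin2d to -0.08; leaving out 1 array spanned -0.04 to 0.13 for Grin2c and -0.03 to 0.06 for Grin2d. The causes were not tested. Over all alternatives the genes called ran from 3068 to 5196 averaged, 105 to 2040 with NAC, 415 to 4118 with VTA, 113 to 550 between pull-downs, 100 to 257 between inputs and 1 to 29 for the difference, against 4866, 1446, 3671, 289, 176 and 8.

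With the replicate block, 4 subunit genes passed in the averaged comparison (all but Grin2a), where 43.4% of all tested genes did, and 2 with NAC (Grin2c and Grin3a), where 13.5% did. Labels give arrays of different groups the same numbers but not the same animals; same-numbered pull-downs and inputs correlated in their deviations at 0.299 (NAC) and -0.022 (VTA), and same-numbered inputs at 0.221 and pull-downs at -0.134 between targets, so the numbers were not taken as pairs. For the pull-downs a crossed replicate block, chosen after seeing the data, gave 171 genes and 0 subunit genes.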
